A study of Mus musculus with 22 samples.

Results

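Interferon-stimulated genes are the genes that cells switch on when interferons bind their receptors, and 36 of them were followed here through mouse mammary cultures, allografts and primary cancers. The 36 members were listed by symbol, and all 36 were found in both deposited tables, of 23993 gene symbols in the first and 23490 in the second. The study set 2 ways of growing mouse mammary cells side by side, conditional reprogramming (CRC) and a culture named EpiC in the labels, taken here as the mammary-optimised one of the series title. The first table held 16 libraries, which were 7 allografts from CRC cells, 3 allografts from EpiC cells, 3 CRC cultures and 3 EpiC cultures. The second table held 6 libraries, which were 2 CRC cultures of primary cancers, 2 EpiC cultures of the same cancers and the 2 primary cancers themselves. Levels are in FPKM, so fragments are set against both the length of the transcript and the size of the library.

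All cells came from nulliparous C57Bl/6 females that carried 1 mutant Trp53 allele and MMTV-Cre, so no group lacked these alleles. Cells called CYP19A1 here had the genotype Tet-op-CYP19A1MMTV-rtTA/p53-/+/MMTV-Cre. Cells called Brca1het had Brca1fl 11/WT/MMTV-Cre/Trp53-/+, and cells called Brca1hom had Brca1fl11/fl11/MMTV-Cre/Trp53-/+. The MMTV promoter drives Cre and rtTA mainly in mammary epithelium. The CRC allografts were 3 Brca1hom, 3 Brca1het and 1 CYP19A1, and the EpiC allografts were 2 Brca1het and 1 CYP19A1. Each culture medium had 1 culture of each genotype. Culture 1 is CYP19A1, culture 2 is Brca1het and culture 3 is Brca1hom, and both cancers with all their cultures were Brca1het. Allografts grew in the mammary gland of NU (NCr)-Foxn1nu mice, which lack T cells but keep macrophages, natural killer cells and B cells. The labels give no age, and they do not say which libraries came from separate animals, so p-values measure only the spread between these samples. The CRC allografts 10B and 10C share a number in their titles, and so do both cancers, without a stated meaning.

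Type I and type II interferons act through different receptor pairs, and both use JAK kinases and STAT proteins to reach the nucleus. Type I interferon assembles a complex with STAT2 and IRF9 in it that binds the interferon-stimulated response element (ISRE), whereas interferon gamma acts mainly through the gamma-activated site (GAS). The genes they turn on sense viral RNA, block viral translation and replication, load and trim the ubiquitin-like protein ISG15, restrict intracellular microbes and call in lymphocytes. In breast tumours such genes are expressed both by cancer cells and by infiltrating immune cells.

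No 2 libraries held identical values, over 120 pairs in the first table and 15 in the second. Read counts were not part of the tables, so depth is unknown, and the precision of low values cannot be stated. The EpiC culture 3, from Brca1hom cells, stood apart. Its 11 epithelial marker genes summed to 16.2 FPKM, against 2560 to 16000 FPKM in the other cultures, so it went against the label of a mammary epithelial culture. Results that rest on this library are given with and without it. Differences below come from limma fits of log2(FPKM + 1) values, a scale on which changes of low genes are understated, over all genes that averaged at least 1 FPKM. A gene is called higher or lower where the Benjamini-Hochberg adjusted p over all tested genes is under 0.05. Counts of members at an unadjusted p under 0.05 come without the share of all genes at that level. They cannot show an excess among members.

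Promoter windows of 300 bases, 250 before and 50 after the transcription start, were available for 27 of the 36 members from RefSeq (GRCm38.p6). 4 of them, all among the genes given library by library below, are shown because they differ in the elements they hold. Capitals mark matches to the ISRE core on either strand, which is GAAA, any 2 bases and GAAA, and to the GAS core TTCNNNGAA, which reads the same on both strands. Isg15 lies at chr4:156200769-156201068 on the minus strand, Gbp2 at chr3:142620413-142620712 on the plus strand, Cxcl10 at chr5:92348840-92349139 on the minus strand and Irf1 at chr11:53769764-53770063 on the plus strand, the first of its 2 windows.
Isg15: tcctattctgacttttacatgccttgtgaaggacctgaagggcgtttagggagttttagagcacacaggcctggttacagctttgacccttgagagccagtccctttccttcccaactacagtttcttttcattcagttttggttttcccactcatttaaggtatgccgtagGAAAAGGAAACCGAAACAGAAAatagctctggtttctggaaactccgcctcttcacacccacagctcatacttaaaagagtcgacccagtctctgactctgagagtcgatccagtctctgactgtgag
Gbp2: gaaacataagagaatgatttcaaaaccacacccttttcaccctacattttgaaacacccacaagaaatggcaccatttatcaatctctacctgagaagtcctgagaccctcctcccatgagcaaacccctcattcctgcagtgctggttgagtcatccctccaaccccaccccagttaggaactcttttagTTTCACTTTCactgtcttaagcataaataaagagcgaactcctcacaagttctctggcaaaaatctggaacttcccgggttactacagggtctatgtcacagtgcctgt
Cxcl10: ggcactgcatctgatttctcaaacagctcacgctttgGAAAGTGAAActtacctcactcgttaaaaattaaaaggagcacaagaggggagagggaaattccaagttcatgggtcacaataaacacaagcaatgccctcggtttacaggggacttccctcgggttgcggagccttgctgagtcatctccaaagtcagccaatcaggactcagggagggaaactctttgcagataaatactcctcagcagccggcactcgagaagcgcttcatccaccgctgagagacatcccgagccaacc
Irf1: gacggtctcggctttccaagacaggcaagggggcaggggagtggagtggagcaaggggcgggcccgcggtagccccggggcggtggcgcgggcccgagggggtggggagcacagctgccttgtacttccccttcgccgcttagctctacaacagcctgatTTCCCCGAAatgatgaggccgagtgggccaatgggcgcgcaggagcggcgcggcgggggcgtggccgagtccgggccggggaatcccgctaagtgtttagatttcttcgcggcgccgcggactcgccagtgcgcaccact
In Isg15 3 overlapping ISRE matches run together, starting 78, 72 and 66 bases before the start. Gbp2 has 1 ISRE match at 59 bases and Cxcl10 1 at 213 bases before the start, and Irf1 has 1 GAS match at 90 bases and no ISRE match. The ISRE core was present in 16 of the 27 members with a window, or 51.6% of their 31 windows, against 3.44% of all 32851 windows in the table. Bst2, Gbp3, Ifit1, Ifit3, Irgm1, Isg15 and Oas1a held 2 or more. The GAS core was present in 7 members, or 22.6% of windows against 8.3% of all windows. No match of either core was present in the windows of Irf7, Irf9, Oasl2, Oasl1, Xaf1, Ifi44, Cmpk2 or Dtx3l, which says only that these letters are not there.

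**Figure D1:**
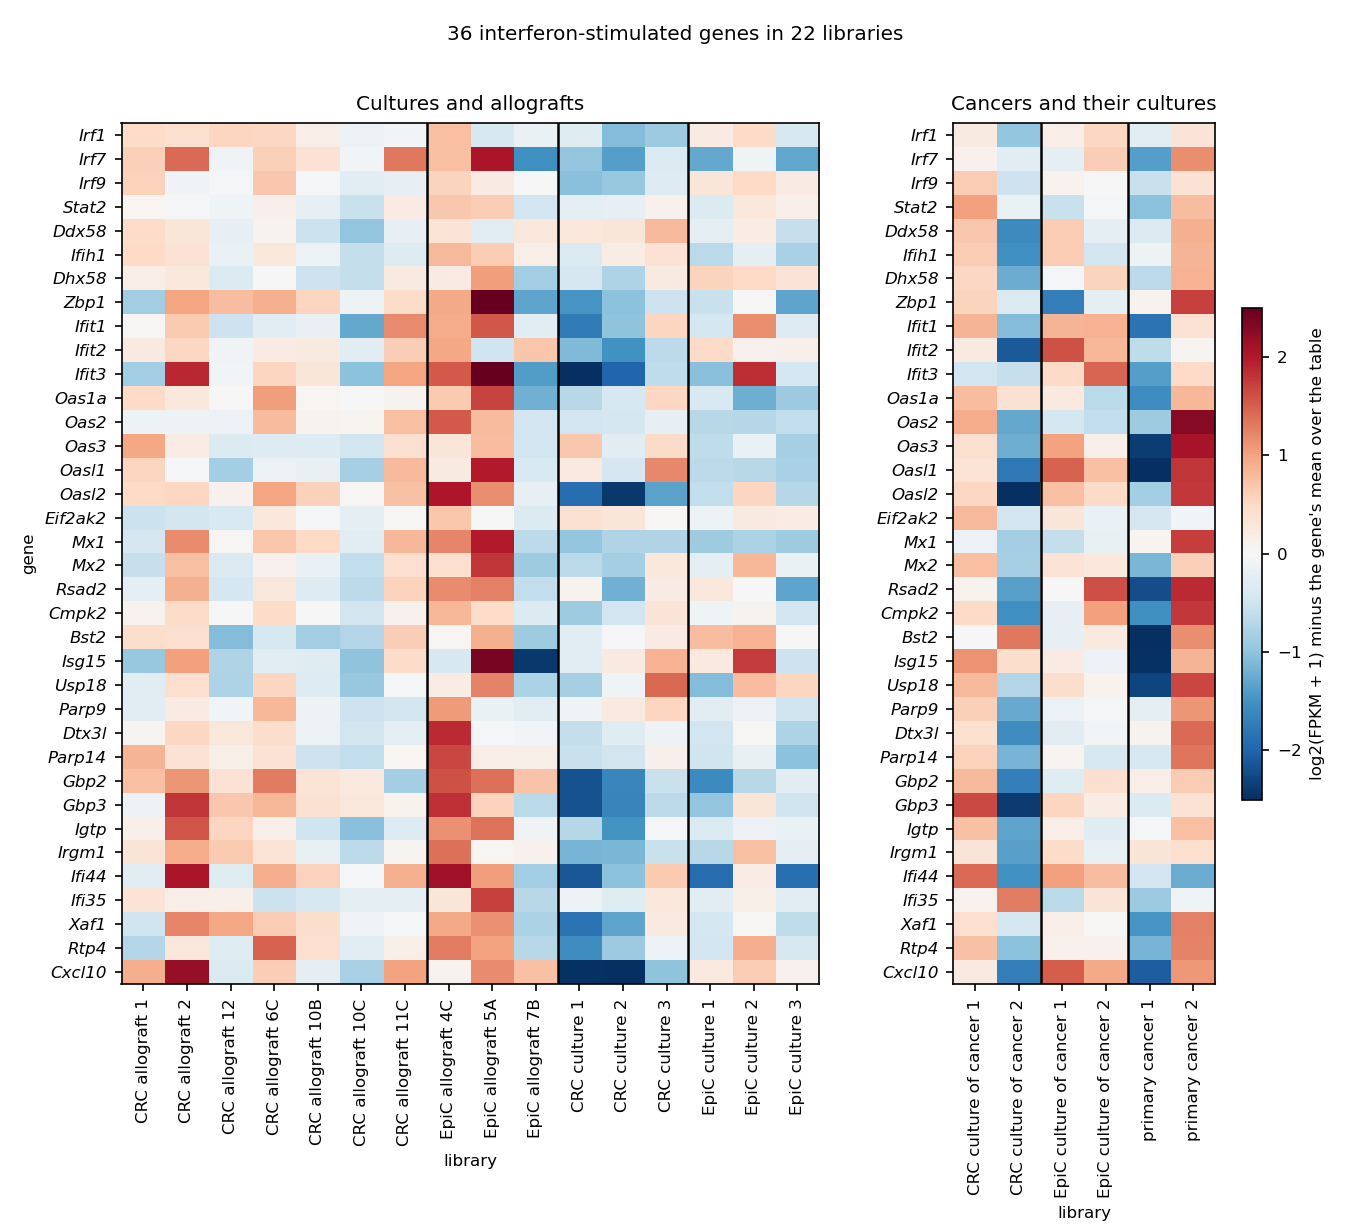
Heat map of the 36 interferon-stimulated genes (rows) in 16 libraries of the first table (left) and 6 of the second (right), coloured by log2(FPKM + 1) minus the gene's mean over its table. Neighbouring columns of 1 group often differ in most rows, as in the EpiC allografts 5A and 7B and in the cancers 2 and 1.

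The members varied between libraries of 1 group. In the heat map of all members, the EpiC allografts 4C and 5A were highest of the 10 allografts for 15 and 14 of the 36 members, against 13.8% and 21.4% of all genes. The EpiC allograft 7B was lowest for 15 and the CRC allograft 10C for 14, against 11.5% and 5.22% of all genes. Summed over the 36 members, these 4 libraries held 807.3, 1042, 326.1 and 308.6 FPKM.

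Members differed in how far they spread. Across the 10 allografts the highest library exceeded the lowest 2.04-fold for Irf9, the DNA-binding part of the type I complex. The ratio was 2.28-fold for Irf1, a transcription factor induced mainly by interferon gamma, 2.53-fold for Eif2ak2, the RNA-sensing kinase PKR, and 2.69-fold for Stat2. It reached 35.0-fold for Isg15, the ubiquitin-like modifier, 33.6-fold for Ifit3, an RNA-binding antiviral protein, 25.2-fold for Mx1 and 47.5-fold for Mx2, a pair of antiviral GTPases. Many laboratory strains, C57BL/6 among them, carry a defective Mx1. Members of the Ifit, Oas, Gbp, Mx and Irgm1/Igtp families have near copies in the genome, and their values are uncertain where reads could be shared.

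CRC cultures had less of the chemokine Cxcl10, the antiviral protein Ifit2 and the transcription factor Irf9 than EpiC cultures did, and these were the 3 members called, all lower, of 32 tested. Across all tested genes 23.2% were called in this comparison and 11.7% were called lower, so the members' count was no larger than the background. Of the 32, 12 differences were positive and 20 negative, with a median of -0.456 beside 0.0427 over all genes.

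Cxcl10, which attracts T cells and natural killer cells through CXCR3, had 5.75, 0.954 and 1.47 FPKM in CRC cultures 3, 2 and 1, against 13.7, 20.2 and 15.1 FPKM in EpiC cultures 3, 2 and 1. The groups did not overlap, and the log2 difference was -2.42 (SE 0.48, limma adjusted p = 0.0341). Ifit2 had 4.26, 1.91 and 2.82 FPKM in CRC cultures, against 8.02, 7.88 and 10.5 FPKM in EpiC cultures in the same order. It was lower in every CRC culture, by -1.33 on the log2 scale (SE 0.24, limma adjusted p = 0.0293). Irf9 had 9.11, 5.54 and 5.05 FPKM in CRC cultures and 13.5, 16.7 and 14.4 FPKM in EpiC cultures. The difference was -1.10 (SE 0.25, limma adjusted p = 0.042).

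These calls were narrow. Leaving out CRC culture 1, CRC culture 2, EpiC culture 1 or EpiC culture 2 left no member called, with adjusted p-values of up to 0.193 for Irf9, 0.156 for Ifit2 and 0.135 for Cxcl10. Without EpiC culture 3, the library without epithelial genes, 12 members were called, all lower in CRC cultures: Irf9, Dhx58, Zbp1, Ifit1, Ifit2, Ifit3, Oasl2, Bst2, Gbp3, Xaf1, Rtp4 and Cxcl10. The median over the tested members was then -0.898, and 2016 of all genes were called, against 2741 with all 6 cultures. Without CRC culture 3, 11 members and 2091 of all genes were called. Each medium had 1 culture of each genotype, and genotype was in the fit. Leaving out either culture of a genotype therefore took that whole pair out of the difference. The fits without EpiC culture 3 and without CRC culture 3 thus rest on the same remaining pairs, and they do not single out EpiC culture 3. The fits without CRC culture 1 or 2 or EpiC culture 1 or 2 called between 159 and 671 of all genes.

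The other transcription factors did not pass. Irf1 had 19.5, 17.1 and 29.9 FPKM in CRC cultures, against 27.9, 52.5 and 43.4 FPKM in EpiC cultures (difference -0.86, limma adjusted p = 0.0874). Irf7, the master regulator of interferon alpha genes, had 8.59, 3.70 and 5.20 FPKM in CRC cultures and 3.96, 10.4 and 4.03 FPKM in EpiC cultures, which overlapped (difference -0.01, limma adjusted p = 0.992). Stat2 had 6.42, 4.94 and 4.82 FPKM in CRC cultures and 6.57, 7.25 and 4.44 FPKM in EpiC cultures (difference -0.13, limma adjusted p = 0.632). Of the 4 factors only Irf9 thus passed, and they did not share a direction in each genotype. Irf7 was higher in the CRC culture of CYP19A1 and Brca1hom cells, and Stat2 in that of CYP19A1 cells.

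Effector genes went both ways in CRC against EpiC cultures. The 3 Ifit genes had negative differences with a median of -1.32, and so did the 4 interferon-inducible GTPases (Gbp2, Gbp3, Igtp, Irgm1), with a median of -0.747. Of the oligoadenylate synthetase family, whose enzymatic members activate RNase L, Oas1a and Oasl1 had positive differences and Oasl2 a negative one, while Oas2 and Oas3 were not tested, and Eif2ak2 had a positive difference. Parp9, Dtx3l and Parp14, which form an ADP-ribosylation and ubiquitin module, had positive differences with a median of 0.274. Dtx3l and Parp14 were higher in CRC only in the Brca1hom pair, which holds EpiC culture 3. The 3 genes summed to 28.4, 22.2 and 17.6 FPKM in CRC cultures 3, 2 and 1. Their sums were 13.2, 21.4 and 17.0 FPKM in EpiC cultures in the same order. Only Ifit2 of these groups was called.

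For the Isg15 and Ifit1 genes the order of the media was not the same in each genotype pair, with 1 library a side. Isg15 had 44.1, 27.6 and 19.3 FPKM in CRC cultures 3, 2 and 1 and 16.1, 81.3 and 28.1 FPKM in EpiC cultures 3, 2 and 1. Ifit1, which binds viral RNA caps, had 13.4, 3.96 and 1.96 FPKM in CRC cultures and 6.89, 21.2 and 6.29 FPKM in EpiC cultures. For both CRC was lower than EpiC in CYP19A1 and Brca1het cells and higher in Brca1hom cells, and neither difference passed (limma adjusted p = 0.801 for Isg15 and 0.337 for Ifit1). The Brca1hom pair holds EpiC culture 3, the library without epithelial genes, so genotype and that library cannot be told apart here. Without that library Ifit1 was called lower in CRC cultures and Isg15 was not called.

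Bst2 and Gbp2 were also below the threshold. Bst2, the membrane tether that holds budding viruses, had 70.6, 60.1 and 50.7 FPKM in CRC cultures and 61.2, 112 and 104 FPKM in EpiC cultures (limma adjusted p = 0.213). Gbp2, a guanylate-binding GTPase induced strongly by interferon gamma, had 23.3, 10.5 and 6.88 FPKM in CRC cultures and 28.1, 21.1 and 10.8 FPKM in EpiC cultures. Its difference of -0.59 did not pass (limma adjusted p = 0.0938), although CRC was lower in each genotype.

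Within genotypes the direction varied. Of the 36 members, 11 were higher in the CRC than in the EpiC culture of CYP19A1 cells (median -0.383), 8 of Brca1het cells (median -1.13) and 24 of Brca1hom cells (median 0.487), the pair that holds EpiC culture 3. Between 51.2% and 53.1% of all genes were higher in the CRC culture of these pairs. Irf1, Irf9, Dhx58, Ifit2, Ifit3, Oasl2, Gbp2, Gbp3, Irgm1 and Cxcl10 were lower in the CRC culture of all 3 genotypes, and Ddx58, Ifih1, Oas2, Oasl1 and Parp9 were higher in all 3. Ddx58 and Ifih1 encode the RNA sensors RIG-I and MDA5, and Dhx58 encodes LGP2, the third of that family. Each pair has 1 library a side and no test.

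Cell markers moved with the culture medium too. The 11 epithelial markers summed to between 9910 and 16000 FPKM in CRC cultures and between 16.2 and 2740 FPKM in EpiC cultures. The 14 fibroblast markers summed to between 494 and 814 FPKM in CRC cultures and between 5850 and 9680 FPKM in EpiC cultures, and 12 of the 13 tested were called lower in CRC. Their part in the members' differences was not tested. In bulk samples such as these, fewer cells of a type and less RNA per cell cannot be told apart.

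Ifnar1 and Ifnar2, the 2 chains of the type I interferon receptor, Ifngr2, the second chain of the interferon gamma receptor, and Il10rb, a chain shared with the interferon lambda receptor, were lower in CRC cultures. These were 4 of the 6 receptor genes tested, and none was called higher. Ifnar1 had 4.0, 3.31 and 6.15 FPKM in CRC cultures 3, 2 and 1, against 34.2, 16.03 and 17.9 FPKM in EpiC cultures (difference -2.07, SE 0.31, limma adjusted p = 0.0206). Ifnar2 had 25.3, 23.5 and 38.2 FPKM in CRC cultures, against 162, 120 and 147 FPKM in EpiC cultures (difference -2.28, SE 0.20, limma adjusted p = 0.00838). No CRC culture reached the lowest EpiC culture for either chain.

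Ifngr2 had 10.9, 9.28 and 13.7 FPKM in CRC cultures and 70.3, 62.7 and 56.7 FPKM in EpiC cultures (difference -2.40, limma adjusted p = 0.00769). Il10rb had 17.7, 15.6 and 16.8 FPKM in CRC cultures and 42.8, 41.4 and 53.6 FPKM in EpiC cultures (difference -1.40, limma adjusted p = 0.0132). All 4 receptor calls were lost without CRC culture 2 or EpiC culture 2, and those of Ifnar1 and Il10rb were also lost without CRC culture 1. Il10rb lost its call without EpiC culture 1 as well.

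In RefSeq's gene order Ifnar2, Il10rb, Ifnar1 and Ifngr2 lie next to each other on mouse chromosome 16. Among the 8 genes on each side, Son, an RNA-binding splicing protein, was the 1 called in CRC against EpiC cultures, and it was higher (0.83, limma adjusted p = 0.0318). The nearest tested flanking genes were not called, with differences of 0.28 for Tmem50b and -0.44 for Paxbp1.

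Further pathway genes were lower in CRC cultures. Of the 5 inhibitors listed, Socs1 and Socs3, which block JAK signalling, were called lower, by -1.93 (limma adjusted p = 0.0239) and -1.60 (limma adjusted p = 0.0223). The kinase gene Jak2 was lower by -0.76 (limma adjusted p = 0.0452). None of 11 tested genes of nucleic acid sensing was called by limma, and 1 had an unadjusted p under 0.05. Among 25 further interferon-stimulated genes tested, 9 were called lower and 1 higher. The largest decreases were those of Ccl5, a T cell chemokine (-2.60, limma adjusted p = 0.0105), Ifitm1, which blocks viral entry (-2.42, limma adjusted p = 0.0306), and Lgals3bp, a secreted glycoprotein (-1.94, limma adjusted p = 0.0273). Samd9l was the 1 called higher (1.03). Every call named in this paragraph was lost without CRC culture 2 or EpiC culture 2. Those of Jak2 and Samd9l were lost without any 1 culture, that of Ifitm1 also without EpiC culture 3, and all but that of Ccl5 also without CRC culture 1 or EpiC culture 1.

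Interferon genes themselves were near or at 0 in the first table. The highest value there was 0.341 FPKM, for Ifnb1 in the EpiC allograft 5A, and no ligand gene averaged 1 FPKM, so none was tested. Ifna1, Ifna2, Ifna4, Ifnl2 and Ifnl3 were listed at 0 in every library of the first table.

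**Figure D2:**
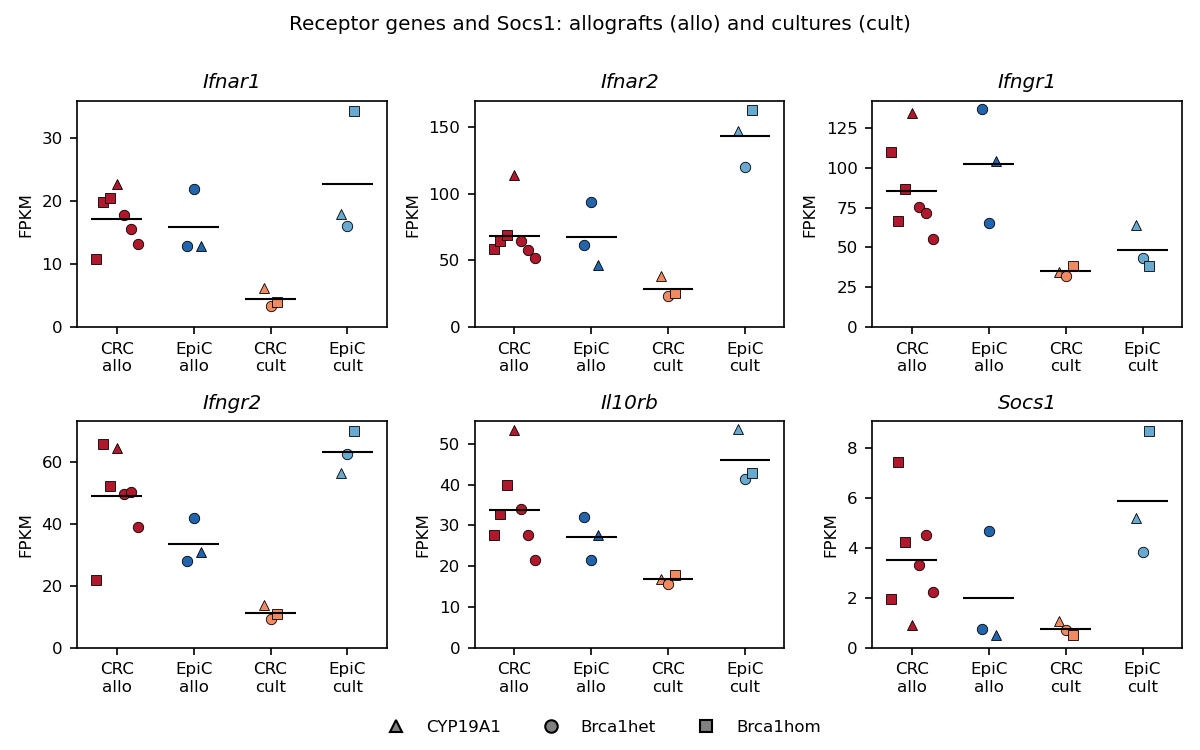
FPKM of the interferon receptor genes Ifnar1, Ifnar2, Ifngr1, Ifngr2 and Il10rb and of the inhibitor gene Socs1 in each library of the first table, by group (points, with the marker shape giving the genotype), with the group mean as a line. For Ifnar1, Ifnar2, Ifngr2 and Il10rb the CRC cultures lie below every EpiC culture, and the same holds for Socs1.

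Allografts had higher levels of the guanylate-binding and immunity-related GTPases, of Oasl2 and of Cxcl10 than cultures did. Of 34 members tested over both media, 12 were called higher and none lower. In all, 34.5% of genes were called and 18.2% were called higher, so the share of members called in either direction was close to that of all genes and the share called higher was above that of all genes. The median difference was 0.631 beside 0.0127 over all genes, with 28 positive and 6 negative. Oas2 and Oas3 averaged under 1 FPKM and were not tested.

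All 4 GTPases rose. Gbp2 had 18.7, 44.8 and 86.0 FPKM as the lowest, median and highest of the 7 CRC allografts and 91.7, 106 and 57.2 FPKM in EpiC allografts 5A, 4C and 7B. Against them stand the 6 cultures given above, between 6.88 and 28.1 FPKM, which 9 of the 10 allografts exceeded. The difference was 2.03 (SE 0.30, limma adjusted p = 0.000185). Gbp3 had 6.69, 9.96 and 28.1 FPKM as lowest, median and highest in CRC allografts and 11.5, 29.0 and 4.29 FPKM in EpiC allografts. It had 4.34, 1.68 and 0.869 FPKM in CRC cultures and 4.99, 9.40 and 3.26 FPKM in EpiC cultures (difference 1.55, SE 0.37, limma adjusted p = 0.00539). The EpiC allograft 7B and 3 CRC allografts lay within the range of the cultures. Igtp and Irgm1, which guard vacuoles against intracellular parasites, were higher by 0.98 (limma adjusted p = 0.0244) and 0.93 (limma adjusted p = 0.0195), and both calls were lost without CRC culture 2.

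Among the antiviral effectors, Oasl2 had 10.1, 14.6 and 20.6 FPKM as lowest, median and highest in CRC allografts and 23.5, 43.3 and 8.39 FPKM in EpiC allografts. Its levels were 3.29, 1.05 and 1.90 FPKM in CRC cultures and 5.68, 14.8 and 6.11 FPKM in EpiC cultures. The difference was 1.84 (SE 0.34, limma adjusted p = 0.000913). Ifi44, an antiproliferative protein, had 3.72, 7.68 and 22.8 FPKM as lowest, median and highest in CRC allografts and 10.9, 23.8 and 2.16 FPKM in EpiC allografts, against 8.15, 1.83 and 0.320 FPKM in CRC cultures and 0.576, 5.63 and 0.539 FPKM in EpiC cultures. It was higher by 1.46 (SE 0.50, limma adjusted p = 0.036), with overlap. Mx1 was higher by 1.31 (limma adjusted p = 0.0104), Xaf1, a pro-apoptotic protein, by 1.08 (limma adjusted p = 0.029) and Ifit2 by 0.87 (limma adjusted p = 0.0217). The calls of Ifit2, Ifi44 and Xaf1 were lost without CRC culture 1 or CRC culture 2, and those of Ifi44 and Xaf1 also without EpiC culture 3, CRC allograft 2 or CRC allograft 6C. Ifi44 further lost its call without EpiC allograft 4C or EpiC culture 1, and Xaf1 without CRC allograft 12.

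Zbp1, a sensor of Z-form nucleic acid that can start necroptosis, had 6.29, 18.4 and 25.5 FPKM as lowest, median and highest in CRC allografts and 78.7, 24.8 and 4.34 FPKM in EpiC allografts. Its levels were 8.35, 5.58 and 3.83 FPKM in CRC cultures and 4.34, 12.7 and 8.14 FPKM in EpiC cultures. The difference of 1.23 was just called (SE 0.45, limma adjusted p = 0.0484) and was lost in 13 of 22 alternative settings. Of these 13 settings 12 left out 1 library, and the other had no filter on low values. Among the fits that left out 1 library, the call held only without CRC allograft 1, CRC allograft 10C, EpiC allograft 7B or EpiC culture 1.

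Cxcl10 had 6.76, 19.9 and 60.5 FPKM as lowest, median and highest in CRC allografts and 30.2, 13.5 and 21.7 FPKM in EpiC allografts. Every CRC allograft was above every CRC culture, while EpiC allografts and EpiC cultures overlapped. Over both media the difference was 1.75 (SE 0.46, limma adjusted p = 0.00958), a call lost without CRC culture 2. Irf7 had 10.6, 17.5 and 31.9 FPKM as lowest, median and highest in CRC allografts and 49.2, 19.6 and 3.26 FPKM in EpiC allografts. It was higher than in cultures by 1.30 (SE 0.41, limma adjusted p = 0.0243), although the EpiC allograft 7B lay below all 6 cultures. This call too was lost without CRC culture 2.

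Other members, the ISG15 pair among them, were not called. Isg15 had 11.3, 18.9 and 48.8 FPKM as lowest, median and highest in CRC allografts and 127, 17.6 and 3.62 FPKM in EpiC allografts, which overlapped with the cultures (difference -0.76, limma adjusted p = 0.29). Usp18, the protease that removes ISG15, had a difference of -0.22 (limma adjusted p = 0.688). Bst2 had 28.3, 46.1 and 94.4 FPKM as lowest, median and highest in CRC allografts and 114, 63.6 and 32.5 FPKM in EpiC allografts (difference -0.39, limma adjusted p = 0.375).

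Stat2 had 3.71, 5.62 and 6.98 FPKM as lowest, median and highest in CRC allografts and 9.50, 9.96 and 3.96 FPKM in EpiC allografts (difference 0.09, limma adjusted p = 0.749). Ifit1 had 3.07, 7.74 and 21.3 FPKM as lowest, median and highest in CRC allografts and 27.9, 17.8 and 7.25 FPKM in EpiC allografts (difference 0.54, limma adjusted p = 0.298). Both ranges overlapped with the cultures. Of the transcription factors 1 of 4 was called, of the ISG15 pair 0 of 2, and of Parp9, Dtx3l and Parp14 0 of 3.

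**Figure D3:**
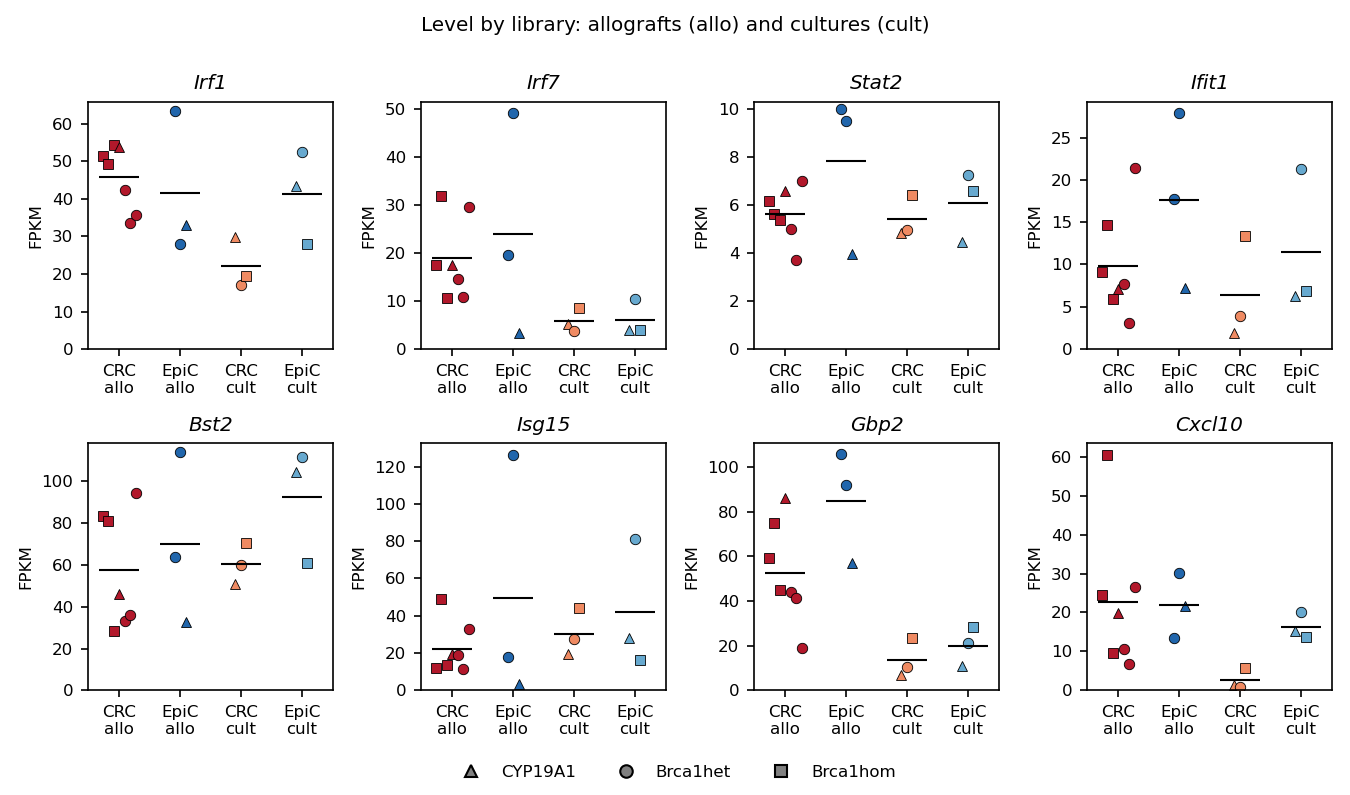
FPKM of Irf1, Irf7, Stat2, Ifit1, Bst2, Isg15, Gbp2 and Cxcl10 in each library of the first table, by group (points, with the marker shape giving the genotype), with the group mean as a line. Gbp2 is above the cultures in all allografts but 1, whereas Isg15 spreads between 3.62 and 127 FPKM within the EpiC allografts.

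Split by medium, CRC allografts against CRC cultures gave 8 members called higher and none lower of 34 tested, where 39.6% of all genes were called and 21.2% were called higher. The share of members called higher was close to that of all genes called higher, and none was called lower. Cxcl10 was higher by 2.53 (SE 0.52, limma adjusted p = 0.00166), Oasl2 by 2.31 (SE 0.41, limma adjusted p = 0.000553), Gbp3 by 1.90 (SE 0.47, limma adjusted p = 0.00576) and Gbp2 by 1.83 (SE 0.40, limma adjusted p = 0.00237). Ifit2 had 5.76, 8.63 and 11.7 FPKM as lowest, median and highest in CRC allografts, above all 3 CRC cultures (difference 1.32, limma adjusted p = 0.00373). Irgm1 had 9.62, 19.8 and 30.7 FPKM in the same order, against 10.4, 6.60 and 6.43 FPKM in CRC cultures (difference 1.08, limma adjusted p = 0.0311). Its call was lost without any 1 of the CRC cultures or the CRC allografts 12, 2 or 6C.

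The transcription factors Irf1 and Irf9 rose in the CRC allografts as well. Irf1 had 33.5, 49.4 and 54.3 FPKM as lowest, median and highest there, and every one exceeded the CRC cultures (difference 1.07, SE 0.29, limma adjusted p = 0.00997). Irf9 had 9.27, 11.1 and 18.9 FPKM (difference 0.84, SE 0.26, limma adjusted p = 0.0178). The call of Irf1 was lost without CRC culture 2 or 3, and that of Irf9 without CRC culture 1 or 2. Without CRC culture 2 the count of called members was 5, and it was 12 without the EpiC allograft 5A or 7B, which enter the same fit. These fits called 3330, 5600 and 4865 of all genes, against 4883 with every library. Without EpiC culture 3 the count of members was 8.

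EpiC allografts against EpiC cultures gave 2 members called higher and none lower, where 14.2% of all genes were called and 7.94% were called higher. The share of members called higher was again close to that of all genes called higher. Gbp2 was higher by 2.32 (SE 0.48, limma adjusted p = 0.00534). Ifih1 had 5.31, 6.18 and 3.58 FPKM in EpiC allografts 5A, 4C and 7B, against 1.33, 2.43 and 1.57 FPKM in EpiC cultures 3, 2 and 1 (difference 1.18, SE 0.32, limma adjusted p = 0.0262). The groups did not overlap, but the call of Ifih1 was lost without EpiC allograft 4C, EpiC culture 1 or EpiC culture 3. Without EpiC allograft 7B 8 members were called, with 1184 of all genes against 1750 with every library, and 1 member was called without EpiC allograft 4C, EpiC culture 1 or EpiC culture 3. Without EpiC allograft 5A or CRC allograft 1, 3 members were called.

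No member's allograft-minus-culture difference was shown to depend on the medium. In limma's test of that interaction 12.2% of all genes were called but none of the 34 members, and 6 had an unadjusted p under 0.05. The lowest adjusted p was 0.0591, for Ifih1 (-1.30), and Cxcl10 (1.92), Irf1 (1.09) and Ifit2 (1.09) lay among the 6. Without EpiC culture 2 Ddx58 and Ifih1 were called, without CRC allograft 1 or 6C Ifih1 was, and without EpiC allograft 4C Irf1 was.

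**Figure D4:**
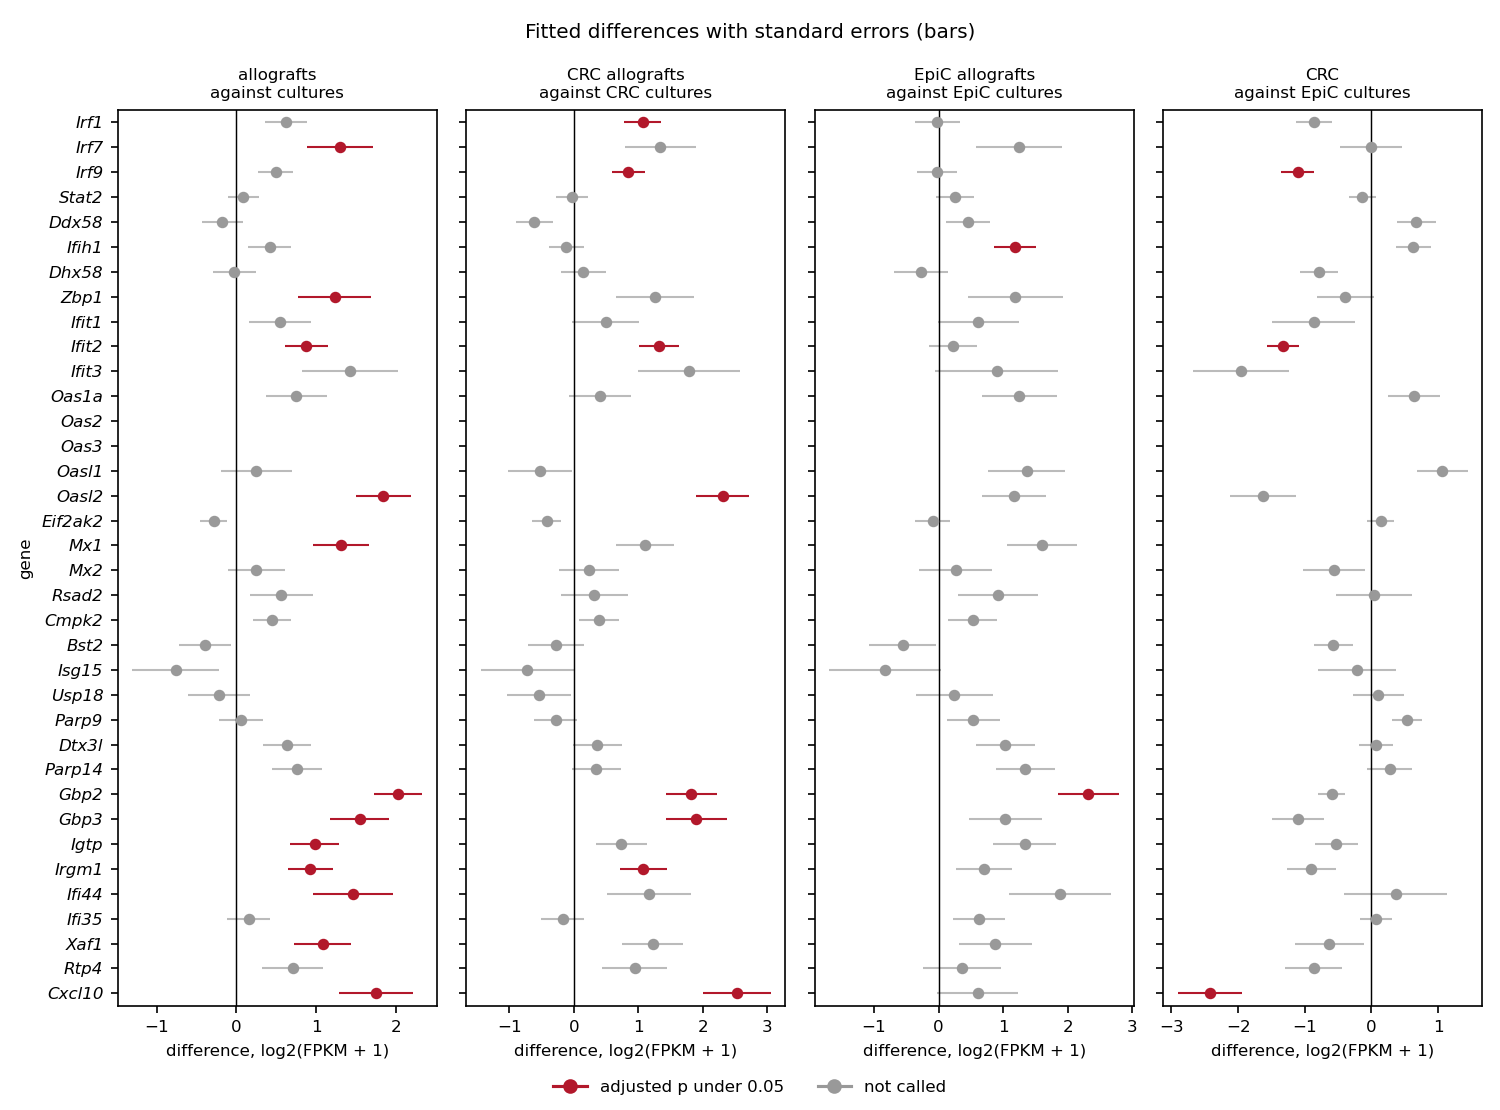
Differences on the log2(FPKM + 1) scale (points) with their standard errors (bars) for the tested members in 4 limma comparisons, with members at an adjusted p under 0.05 in red. CRC against EpiC cultures has 3 red points, all negative, and allografts against cultures 12, all positive.

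The receptors' differences between allografts and cultures took different values in the 2 media, and those of fibroblast markers did too. The fibroblast markers summed to 3940 to 7940 FPKM in CRC allografts, against 494 to 814 FPKM in CRC cultures, and to 2550 to 5440 FPKM in EpiC allografts, against 5850 to 9680 FPKM in EpiC cultures. Their part in the receptors' differences was not tested. In CRC allografts all 5 receptor genes tested were higher than in CRC cultures, namely Ifngr2 (2.0, limma adjusted p = 0.000125), Ifnar1 (1.74, limma adjusted p = 0.000367), Ifngr1 (1.29, limma adjusted p = 0.00161), Ifnar2 (1.25, limma adjusted p = 0.00202) and Il10rb (0.99, limma adjusted p = 0.00314). In EpiC allografts Ifngr1 was higher than in EpiC cultures (1.09, limma adjusted p = 0.0362) and Ifnar2 was lower (-1.10, limma adjusted p = 0.0346). Ifnar1 had 10.8, 17.8 and 22.7 FPKM as lowest, median and highest in CRC allografts and 21.9, 12.9 and 12.9 FPKM in EpiC allografts. Ifnar2 had 52.1, 64.4 and 114 FPKM in CRC allografts and 93.5, 61.4 and 46.7 FPKM in EpiC allografts. In EpiC allografts the call of Ifnar2 was lost without EpiC allograft 4C or 7B, any EpiC culture or CRC culture 3 (limma adjusted p of up to 0.216), and that of Ifngr1 was lost without any of these or the CRC allografts 10B, 10C or 12.

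Over both media Ifnar1 (0.88, limma adjusted p = 0.0662) and Ifnar2 (0.29, limma adjusted p = 0.565) did not pass. Irf8 and Irf5, transcription factors of myeloid cells, were higher in allografts by 4.18 (limma adjusted p = 5.7e-10) and 2.30 (limma adjusted p = 3.6e-05), and Jak2 was lower by -1.0 (limma adjusted p = 0.00137). Of 13 sensing genes 5 were called higher, with Tlr7, an endosomal RNA sensor, at 3.06 (limma adjusted p = 6.93e-07). Of 5 inhibitors Ptpn6, a phosphatase of blood cells, was the 1 called (2.45, limma adjusted p = 9.71e-05).

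The 28 further interferon-stimulated genes tested had 12 called higher and 3 lower in allografts. Ifi27l2a ranged between 9.93 and 321 FPKM in allografts and between 1.66 and 9.24 FPKM in cultures, the largest rise of the list at 3.90. Trim30a was higher by 2.38. Ifitm3, which restricts viral entry in endosomes, was lower, with 214 to 684 FPKM in allografts and 815 to 1230 FPKM in cultures (difference -1.53, limma adjusted p = 0.000231). Helz2 (-0.59) and Tdrd7 (-0.50) were the other genes called lower, and both calls were lost without any 1 of the CRC cultures. Helz2 lost its call without EpiC allograft 7B too, and Tdrd7 without EpiC culture 2 or the CRC allografts 12 or 6C.

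Markers of several host cell types were higher in allografts, and others were not. The 17 macrophage markers were all called higher in allografts, and their sum lay between 4840 and 15400 FPKM in allografts and between 38.1 and 87.8 FPKM in cultures. All 4 tested lymphocyte and natural killer markers were higher, with list sums of 6.46 to 47.0 FPKM in allografts and 0.0494 to 0.576 FPKM in cultures. Of 12 endothelial markers 11 were higher, and 9 of 11 epithelial markers were lower, with sums of 45.9 to 910 FPKM in allografts and 16.2 to 16000 FPKM in cultures. The 6 listed plasmacytoid dendritic cell markers summed to 13.3 to 50.9 FPKM in allografts and 6.93 to 30.1 FPKM in cultures. Of these, Siglech did not exceed 0.18 FPKM. Of 14 fibroblast markers 7 were called higher and 1 lower over both media. Split by medium, 13 were called higher in CRC allografts and 4 were called lower in EpiC allografts, each against its own cultures. None of 9 tested skeletal muscle markers was called by limma, with 7 differences negative and 2 at an unadjusted p under 0.05, and none of 6 tested adipocyte markers, with 0 at that level. The part of these cells in the members' differences was not tested.

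Without CRC culture 2, Oasl2, Mx1, Gbp2 and Gbp3 were the 4 members called in allografts against cultures. Without EpiC allograft 7B 16 were called, and without EpiC culture 3 9 were. These fits called 2969, 4074 and 4424 of all genes, against 4257 with every library. Gbp2, Gbp3 and Oasl2 kept their call in all 22 alternative settings tried for each, and Mx1 in all 21 of its settings.

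No member passed the test of CRC against EpiC allografts. The 3 Brca1hom CRC allografts had no EpiC counterpart, so the fitted difference came from the Brca1het and CYP19A1 libraries. With genotype in the fit, limma called none of the 36 and 0.00833% of all genes, and 3 members had an unadjusted p under 0.05, namely Ifih1 (-0.73), Igtp (-1.25) and Ifi35 (-0.86). In this comparison 34 of 36 differences were negative, with a median of -0.419 beside 0.0173 over all genes, and the lowest adjusted p was 0.528.

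The direction was not the same in each genotype. Among Brca1het allografts the 3 CRC libraries averaged below the 2 EpiC libraries for all 36 members, with differences between -2.3 (Ifit3) and -0.0513 (Ifit2) and a median of -1.06, while 50% of all genes were higher. In CYP19A1 allografts the CRC allograft 6C was above the EpiC allograft 7B for 32 of 36 members (median 0.746), while 53.5% of all genes were higher. Isg15, for example, had 33.1, 11.3 and 18.9 FPKM in the Brca1het CRC allografts 11C, 10C and 10B, against 127 and 17.6 FPKM in the Brca1het EpiC allografts, and 19.4 FPKM in 6C against 3.62 FPKM in 7B. The CYP19A1 pair is 1 library a side and has no test.

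The difference between genotypes was tested after these values were seen. In limma's interaction of medium and genotype 35 of 36 members had a negative difference, with a median of -1.86 beside -0.0247 over all genes. At an unadjusted p under 0.05 were 18 members, a count given without that of all genes. None was called, and 0.05% of all genes were. The lowest adjusted p was 0.333, with Oas1a (-3.36) and Rtp4 (-3.23). Macrophage markers were negative in the same interaction for 16 of 17 genes, and their sums were 15300 FPKM in 5A, 5530 FPKM in 4C, 15400 FPKM in 6C and 7260 FPKM in 7B. Their part in the pattern was not tested.

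Brca1hom CRC allografts were set against Brca1het ones, 3 libraries each. limma called none of the 35 members tested and 0% of all genes. In all, 30 differences were positive, with a median of 0.251, while 49.4% of all genes were higher, with a median of -0.00654. At an unadjusted p under 0.05 were 7 members: Irf1 (0.47), Ddx58 (0.77), Dtx3l (0.57), Parp14 (0.82), Igtp (1.37), Irgm1 (0.89) and Ifi35 (0.50). Irf1 had 54.3, 49.4 and 51.4 FPKM in the Brca1hom libraries 12, 2 and 1, against 35.6, 33.5 and 42.2 FPKM in the Brca1het libraries 11C, 10C and 10B, without overlap. Macrophage marker sums were 8390 to 10200 FPKM in Brca1hom allografts and 4840 to 5970 FPKM in Brca1het allografts, and their part was not tested.

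The 2 primary cancers differed widely, and so did the changes of their cells in culture. Each change is counted from its own cancer, so the gap between the cancers enters it. Cancer 2 exceeded cancer 1 for 35 of 36 members, by a median of 1.73 on the log2 scale and by at least 1 for 25 of them, while 40.2% of all genes were higher. Isg15 had 233 FPKM in cancer 2 and 22.2 FPKM in cancer 1, Oasl2 had 102 and 15.9 FPKM, and Bst2 had 803 and 62.4 FPKM in the same order. Oas3, an oligoadenylate synthetase that needs long RNA, had 49.7 FPKM in cancer 2 and 1.36 FPKM in cancer 1, the widest gap at 4.43. Ifi44 was the exception, lower in cancer 2 by -0.754. These are single libraries, with no test between them.

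Cultures of cancer 1 lay above their cancer. In its CRC culture 34 of 36 members were higher than in cancer 1, by a median of 1.43, while 53.1% of all genes were. Isg15 had 281 FPKM in the CRC culture, 147 FPKM in the EpiC culture and 22.2 FPKM in cancer 1. In the EpiC culture 32 members were higher, by a median of 1.05, while 52.6% of all genes were. Oasl1 was furthest, at 78.6 FPKM in the EpiC culture against 3.85 FPKM in cancer 1. Usp18 had 32.1 FPKM in the CRC culture against 2.81 FPKM in cancer 1.

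Cultures of cancer 2 lay below theirs. In its CRC culture 2 members, Bst2 and Ifi35, were higher than in cancer 2, and the median was -2.14, while 45.5% of all genes were higher. Oasl2 had 3.83 FPKM in the CRC culture, 41.3 FPKM in the EpiC culture and 102 FPKM in cancer 2. In the EpiC culture 6 members were higher, namely Irf1, Ifit1, Ifit2, Ifit3, Ifi44 and Ifi35. The median was -0.867, while 55.0% of all genes were higher. In all, 32 members were above the cancer in the CRC culture of cancer 1 and below the cancer in the CRC culture of cancer 2. That count comes without the share of all genes. The EpiC cultures differed little from each other. In that of cancer 2, 15 members were higher and 21 lower than in that of cancer 1 (median -0.114, 35.5% of all genes higher). Between the CRC cultures, 34 members were lower in that of cancer 2 (median -1.71, 36.8% of all genes higher).

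**Figure D5:**
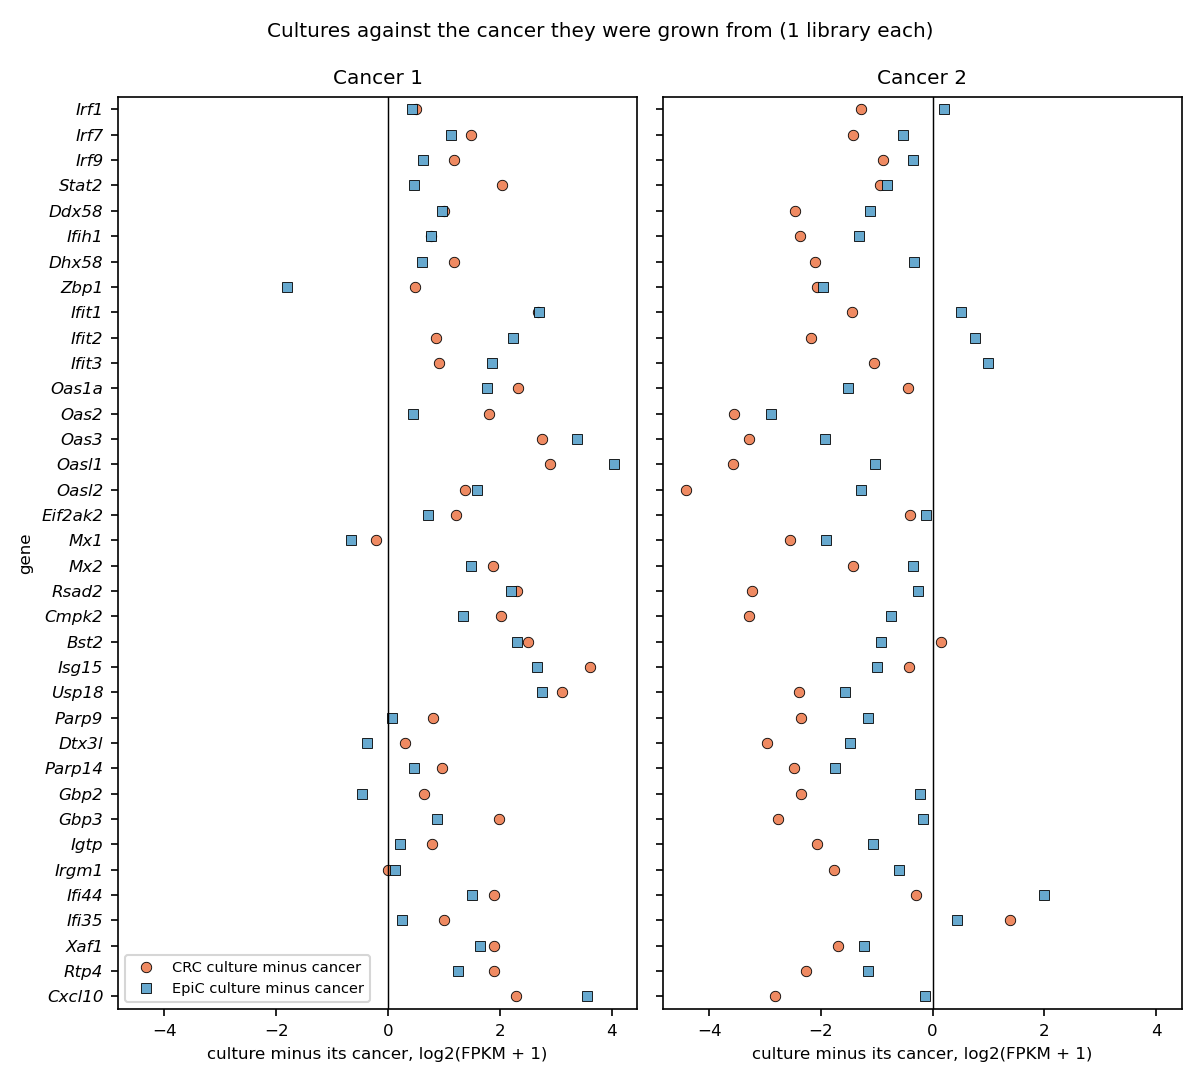
Difference on the log2(FPKM + 1) scale between each culture and its own cancer for the 36 members, for cancers 1 and 2, with 1 library a side. CRC cultures lie above the cancer for 34 members in cancer 1 and for 2 members in cancer 2.

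Single members show the opposite directions of the CRC cultures against their own cancers. Gbp2 had 34.8 FPKM in the CRC culture, 15.5 FPKM in the EpiC culture and 21.9 FPKM in cancer 1, and 5.20, 26.0 and 30.7 FPKM in the same order for cancer 2. Cxcl10 had 15.2 FPKM in the CRC culture, 38.4 FPKM in the EpiC culture and 2.32 FPKM in cancer 1, and 3.16, 25.7 and 28.3 FPKM for cancer 2. Ifit2 had 8.93, 24.5 and 4.44 FPKM for cancer 1 and 0.968, 14.0 and 7.90 FPKM for cancer 2. For Cxcl10 and Ifit2 the CRC culture was below the EpiC culture of both cancers.

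Irf7 had 42.2 FPKM in the CRC culture, 32.6 FPKM in the EpiC culture and 14.4 FPKM in cancer 1, and 32.1, 60.5 and 87.8 FPKM for cancer 2. Irf1 had 44.6, 42.3 and 31.2 FPKM for cancer 1 and 19.0, 55.0 and 47.4 FPKM for cancer 2. Stat2 had 20.9, 6.41 and 4.35 FPKM for cancer 1 and 8.63, 9.52 and 17.5 FPKM for cancer 2. Ifit1 had 21.9, 22.2 and 2.54 FPKM for cancer 1 and 5.06, 22.4 and 15.5 FPKM for cancer 2. Irf1, Irf7, Stat2 and Ifit1 were thus each highest in a culture or in cancer 2, and none was highest in cancer 1.

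With both cancers in 1 fit, no member was called by limma. CRC cultures of cancers against cancers had 0 of 36 members called and 0 at an unadjusted p under 0.05, with 0.889% of all genes called and a lowest adjusted p of 0.799. EpiC cultures of cancers against cancers had none called where 0.677% of all genes were, and Zbp1 (-1.89) was the 1 member with an unadjusted p under 0.05. CRC against EpiC cultures of cancers had none called where 0.00815% of all genes were, and Ifit2 (-2.15) was the 1 member with an unadjusted p under 0.05. The members' medians were -0.367, 0.251 and -0.377, beside -0.06, 0.0813 and -0.0814 over all genes.

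In the second table interferon ligands were low apart from Ifne in the cultures of cancer 1. All listed ligands together summed to 0.344 FPKM in cancer 1 and 1.26 FPKM in cancer 2. Their sums were 0.278 FPKM in the CRC culture and 0.209 FPKM in the EpiC culture of cancer 2. Ifne, an epithelial type I interferon, had 15.9 FPKM in the CRC culture and 10.9 FPKM in the EpiC culture of cancer 1, and Ifnb1 reached 0.866 FPKM in cancer 2. No receptor gene was called. Macrophage markers summed to 103 to 235 FPKM in CRC cultures of cancers, 71.0 to 147 FPKM in EpiC cultures of cancers and 1600 to 1890 FPKM in the cancers, and their part in these differences was not tested.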

How the data were processed

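Poly(A) RNA was sequenced as paired-end TruSeq libraries, per the labels' protocols. The authors deposited FPKM values per gene in 2 tables, normalised separately, so tests stayed within a table. The submitters' processing notes name FastQC, Trim Galore, TopHat, Cufflinks and the mm9 build, with no versions given in the sources used here. Whether counting used strand is also not given there. Entries of the second table that shared a symbol (407 entries of 162 symbols) were summed, and no member was among them. Columns not used numbered 0. In the second table an exact 0 may be a missing estimate.

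Values were taken to log2(FPKM + 1), and genes averaging at least 1 FPKM over the compared libraries entered limma 3.58.1 in R 4.3.3 (lmFit, eBayes with trend), tested on simulated data first. Genotype was a covariate in the first table where the groups allowed it. p-values are two-sided and adjusted over all genes with Benjamini-Hochberg. Residual degrees of freedom were 2 for CRC against EpiC cultures and 3 in the second table. Differences between 2 single libraries are values with no test. Promoter windows came from RefSeq (GRCm38.p6) and were searched on both strands.

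In the second table same-numbered libraries come from the same cancer, as their titles show, so the numbers pair them. Deviations of the pairs from their group means correlated at -0.0555, -0.113 and 0.242. The main fit had no block, and a replicate block was an alternative. The first table's culture numbers only name genotypes. The results were also recomputed with a pseudocount of 0.1, without the filter, with the filter at 5 FPKM, after rescaling by median ratios, with other designs and without each library in turn.

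The members, pathway lists and marker lists were chosen with earlier results of these data known. All 36 members could be named. Per-library values were given for Isg15, Ifit1, Irf7, Irf1, Stat2, Bst2, Gbp2, Cxcl10 and, per comparison, up to 4 further called members in each direction whose higher group averaged 5 FPKM or more. Called pathway genes were named, up to 3 a list and comparison, with any direction holding 5 or fewer named after its values were seen. A further pathway gene is not reported here.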

Additional observations from a re-analysis of the deposited data

Results flagged for a closer look

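Among the interferon pathway genes reported here, 5 had an allograft-minus-culture difference that differed between the CRC and EpiC cells in limma's interaction test, adjusted over all genes. The value given is the CRC difference minus the EpiC difference on the log2(FPKM + 1) scale. It was 2.12 for Ifnar1 (SE 0.46, limma adjusted p = 0.00837), 2.36 for Ifnar2 (SE 0.42, limma adjusted p = 0.00223), 2.92 for Ifngr2 (SE 0.47, limma adjusted p = 0.00109) and 1.69 for Il10rb (SE 0.35, limma adjusted p = 0.00642). These 4 receptor genes are neighbours on chromosome 16, and each kept its call in all 21 alternative settings tried. The CRC minus EpiC differences of the cultures, -2.07, -2.28, -2.40 and -1.40 in the same order, enter these values. They are thus no separate finding from the culture differences given above. Between CRC and EpiC allografts 0.00833% of all genes were called. Of the tested genes flanking them, Itsn1 was called in the same interaction (1.16, limma adjusted p = 0.0214). Of 14 fibroblast markers 11 were called higher in this interaction, with a median of 4.59 over the list, and their part in the receptors' values was not tested.

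The inhibitor Socs1 was at 2.46 (SE 0.68, limma adjusted p = 0.0308) and lost its call in 9 of 20 settings, among them the fits without CRC culture 2 or 3, EpiC culture 1 or 3, EpiC allograft 4C or 7B or the CRC allografts 10B or 10C. Socs1 had 0.915, 3.31 and 7.43 FPKM as lowest, median and highest in CRC allografts, against 0.491, 0.684 and 1.07 FPKM in CRC cultures. It had 4.67, 0.744 and 0.513 FPKM in EpiC allografts 5A, 4C and 7B, against 8.64, 3.81 and 5.16 FPKM in EpiC cultures 3, 2 and 1.

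Among the 7 CRC allografts, no library lay apart from the rest for any of the 36 members by Dixon's test on the log2 values.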

How the results depend on the processing

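No member changed direction among its called results under any alternative tried, but counts of called members moved. Leaving out 1 library at a time gave 0 to 12 called members in CRC against EpiC cultures (159 to 2091 of all genes), 4 to 16 in allografts against cultures (2969 to 4706), 5 to 12 in CRC allografts against CRC cultures (3266 to 5600), 1 to 8 in EpiC allografts against EpiC cultures (997 to 2200) and 0 to 2 in the interaction of state and medium (760 to 2243). The other 6 comparisons stayed at 0 to 0. Taking the CRC allografts 10B and 10C as 1 sample gave 12 called members in allografts against cultures (3988 of all genes). The same setting gave 8 in CRC allografts against CRC cultures (4470) and 2 in EpiC allografts against EpiC cultures (1515). With no filter on low values 0 members were called in CRC against EpiC cultures, and with a mean of at least 5 FPKM 1 was called in EpiC allografts against EpiC cultures. With the replicate block that pairs libraries of 1 cancer, the members called were 0 in each of the 3 comparisons of the second table. The block gave 58, 29 and 0 calls over all genes, against 109, 83 and 1 without it. Rescaling moved the median of all genes by -0.11 in EpiC cultures of cancers against cancers and by 0.145 in CRC against EpiC cultures of cancers. The CRC culture of cancer 2 had an FPKM sum of 1616000, against 607500 to 710500 in the other 5 libraries of its table, and after rescaling 7 rather than 4 members were higher in it than in the EpiC culture of the same cancer. The cause of these changes was not tested. Depth is unknown, so its limit on low genes such as Oas2 and Oas3 cannot be given.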

Other observations

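Ifitm1, a membrane protein that restricts viral entry and is no member of the list, was the interferon-related gene called in CRC cultures of cancers against cancers (-4.21, SE 0.66, limma adjusted p = 0.0461). Its call was lost in 9 of the 11 alternatives tried and kept without either of the primary cancers. In the first table Ifitm1 reached 0.639 FPKM at most in CRC cultures, against 1.29 to 11.5 FPKM in EpiC cultures, and Ccl5 had 5.87 to 12.6 FPKM in CRC cultures and 55.5 to 68.1 FPKM in EpiC cultures.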
